A study of Mus musculus with 2 samples.

Results

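Proteasome genes were taken as all genes on the array whose symbol starts with Psm, a letter from a to g, and a number. This gave 50 genes of 19505 in all, each with 1 probe set, and 47 of them encode proteasome subunits, activators, inhibitors or assembly chaperones. The immunoproteasome group held 5 genes, Psmb8, Psmb9, Psmb10, Psme1 and Psme2, and the constitutive group the other 42. Psmb11, of the thymus form of the particle, and Psma8, of its testis form, were counted in the constitutive group by the rule but lay below the detection threshold. The remaining 3 were described apart. Psmc3ip and Psme3ip1 encode partners of a subunit and not a subunit, and Psme2b is a Psme2-like gene. Psmb5, the constitutive counterpart of Psmb8, was not analysed here.

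The proteasome is the protease that degrades ubiquitin-tagged proteins and supplies most peptides shown by MHC class I molecules. Its 20S core is a barrel of alpha and beta rings, of which 3 beta subunits cut peptide bonds, and the 19S regulatory particle recognises, unfolds and feeds in the substrate. Lymphocytes carry a variant, the immunoproteasome, in which Psmb8, Psmb9 and Psmb10 take the places of Psmb5, Psmb6 and Psmb7, and interferon gamma further induces them together with the PA28 alpha and beta activator subunits encoded by Psme1 and Psme2. T cells contain immunoproteasomes without added interferon.

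The arrays compared mouse CD8 T cells isolated from spleen and lymph node and polarized in culture as Tc1 cells, which make interferon gamma, or as Tc9 cells, which make interleukin 9. Both were primed for 3 days on plate-bound antibody against CD3, with soluble antibody against CD28, and then rested for 2 days with recombinant human IL-2 at 10 ng/mL. During priming the Tc1 cells received recombinant human IL-2 at 10 ng/mL. The Tc9 cells received IL-4 at 10 ng/mL, TGF-beta at 1 ng/mL and the antibody XMG1.2, which blocks interferon gamma, at 20 µg/mL. Each group had 1 array at day 5, so no difference has a replicate check and no test was possible. Strain, age, number of mice and purity of the isolated cells are not stated in the labels. The Tc9 array is named so by its title and description, while its source name reads Tc1. Il9 was higher and Ifng lower on it. The log2 signal of Il9 was 4.82 in Tc1 and 8.45 in Tc9 cells, and that of Ifng 9.28 and 7.57; pairs of log2 signals below are given in this order. Both arrays carried the T cell genes Cd3e, at 12.92 and 12.80, and Cd8a, at 12.19 and 11.93. In RNA from whole cultures, fewer cells of a type and less RNA per cell cannot be told apart.

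The promoters of Psmb9, Psmb8 and Psme2, the 3 immunoproteasome genes past 1.5-fold, and of Psme1 are printed because they place the results beside the genes' start sites. The windows come from RefSeq (GRCm38.p6) and run from 250 bases before to 50 bases after the start, 5′ to 3′ on the gene's strand. Capitals mark matches to the core of the interferon response element (GAAA, any 2 bases, GAAA), to TTCNNNGAA, the core of a STAT site, and to TGANNNNGC, the core of the antioxidant element through which NRF1 acts on proteasome genes.
Psmb9, chr17:34187281-34187580, strand minus: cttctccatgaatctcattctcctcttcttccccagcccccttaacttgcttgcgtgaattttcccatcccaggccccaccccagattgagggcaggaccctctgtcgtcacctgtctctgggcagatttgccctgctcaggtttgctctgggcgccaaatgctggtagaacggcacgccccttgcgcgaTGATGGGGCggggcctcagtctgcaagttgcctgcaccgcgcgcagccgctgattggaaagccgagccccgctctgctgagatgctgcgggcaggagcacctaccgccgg
Psmb8, chr17:34197945-34198244, strand plus: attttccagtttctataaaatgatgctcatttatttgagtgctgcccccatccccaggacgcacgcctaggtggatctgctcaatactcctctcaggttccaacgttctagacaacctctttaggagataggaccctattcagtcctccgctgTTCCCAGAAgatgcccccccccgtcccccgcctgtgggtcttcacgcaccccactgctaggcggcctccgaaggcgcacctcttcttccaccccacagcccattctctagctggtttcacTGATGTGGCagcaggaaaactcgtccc
Psme1, chr14:55578244-55578543, strand plus: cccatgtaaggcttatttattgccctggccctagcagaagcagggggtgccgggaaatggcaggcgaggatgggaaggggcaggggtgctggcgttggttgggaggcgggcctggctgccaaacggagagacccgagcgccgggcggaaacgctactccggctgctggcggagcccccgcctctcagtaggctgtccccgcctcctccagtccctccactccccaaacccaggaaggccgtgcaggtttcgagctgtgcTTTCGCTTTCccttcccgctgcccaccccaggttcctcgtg
Psme2, chr14:55591052-55591351, strand minus: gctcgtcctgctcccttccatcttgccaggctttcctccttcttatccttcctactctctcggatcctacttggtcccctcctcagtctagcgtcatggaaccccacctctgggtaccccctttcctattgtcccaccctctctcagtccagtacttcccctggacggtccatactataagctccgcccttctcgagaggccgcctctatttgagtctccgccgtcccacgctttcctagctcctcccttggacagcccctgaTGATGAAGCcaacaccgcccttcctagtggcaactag

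The window of Psmb9 overlaps that of Tap1, the peptide transporter gene read in the opposite direction, by 275 of its 300 bases. Of the immunoproteasome genes, Psme1 alone held the interferon response core, 10 to 19 bases after its start, and Psmb8 alone the STAT core, from 97 to 89 bases before its start. Its STAT match reads TTCCCAGAA. The pattern is the same on both strands, so the match was counted once, and it overlaps no other match. A second capital stretch in Psmb8, and those of Psmb9 and Psme2, are antioxidant element cores. Psmb10 held none of the 3 in its window. Of all 32851 windows, 3.44% held the interferon response core on either strand, 8.3% the STAT core and 41.3% the antioxidant core. Windows were found for 42 of the 50 genes, of which 34 were constitutive. The interferon response core was in 4 of these 34 (Psmb3, Psmd4, Psmd9 and Psmg4), the STAT core in 2 (Psmd2 and Psmg1) and the antioxidant core in 19. A match describes letters and not a bound factor.

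All 5 immunoproteasome genes had lower signals in Tc9 cells, and most of the constitutive genes were slightly higher. The immunoproteasome median was -0.60 on the log2 scale (Tc9 minus Tc1) and the constitutive median 0.12, a gap of -0.72, against a median of 0.05 over all detectable genes. Genes counted as detectable if the higher of their 2 log2 signals was at least 6.43, the median of all gene values. Of the 10147 detectable genes, 6.78% were lower by 1.5-fold or more in Tc9 cells and 7.8% were higher by as much. Of the 45 detectable proteasome genes, 3 passed 1.5-fold downward, a share of 6.67% that is near the background, and none upward. The 3, Psmb9, Psme2 and Psmb8, were all immunoproteasome genes. At 2-fold, Psmb9 alone was lower, where 2.79% of detectable genes were, and none was higher, where 2.62% were.

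**Figure D1:**
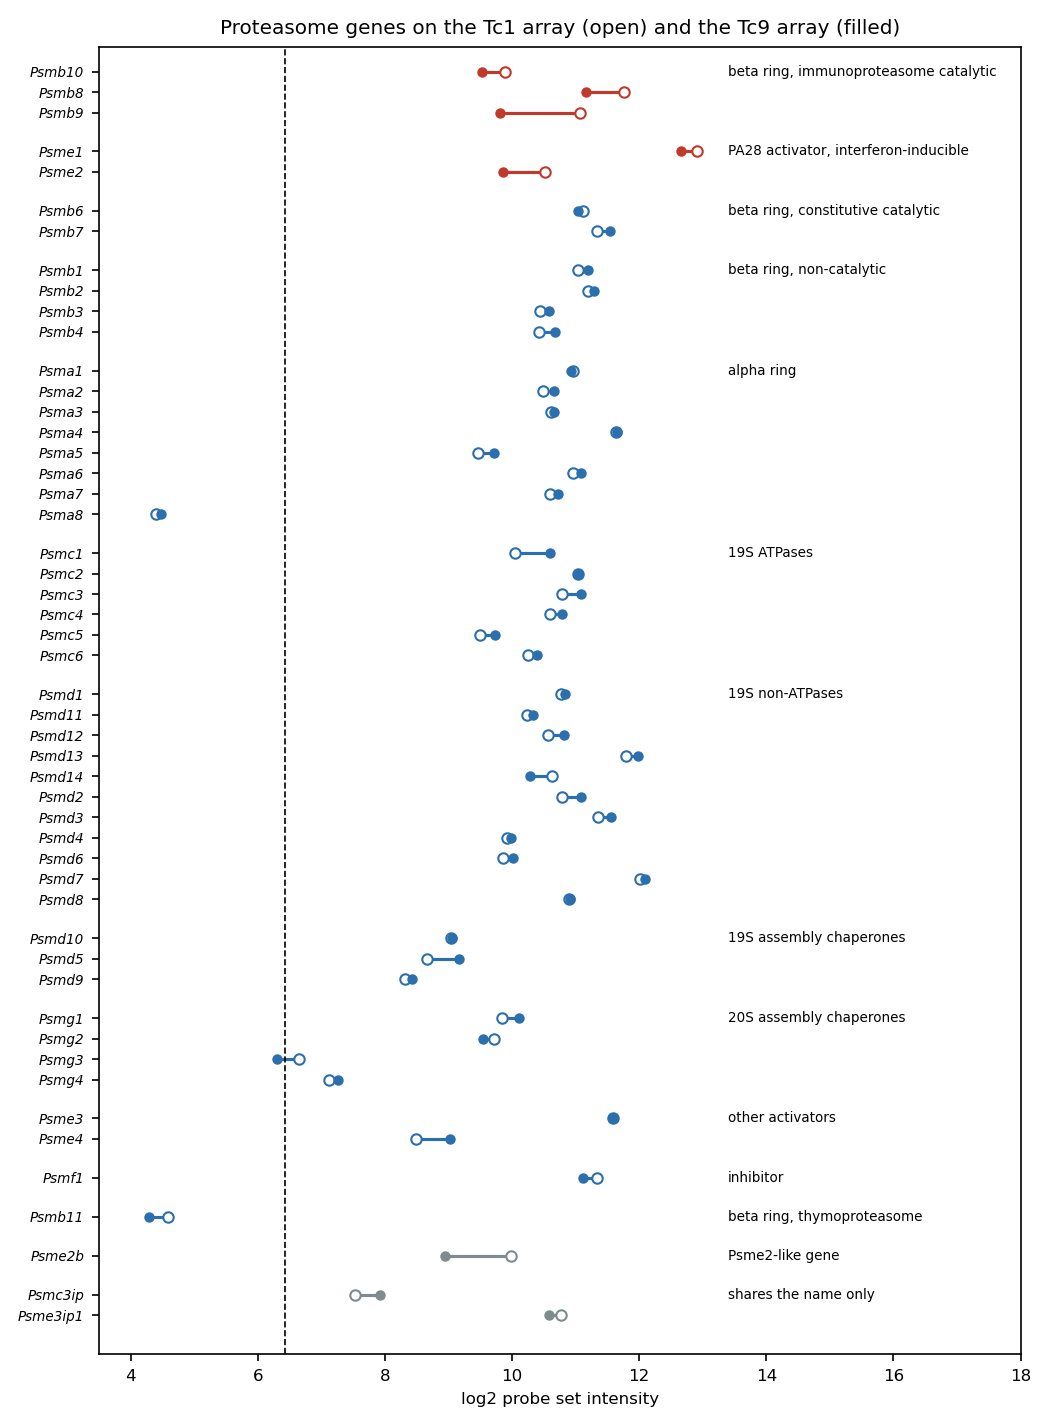
Log2 probe set intensity (x axis) of each of the 50 genes (rows, by structural group) on the Tc1 array (open circle) and the Tc9 array (filled circle), with the dashed line at the detection threshold of 6.43. Red marks immunoproteasome genes, blue constitutive ones and grey those described apart. In all 5 red rows the filled circle lies left of the open one. Probe sets differ in brightness, so signals are not comparable between rows.

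Psmb9 encodes LMP2, the immunoproteasome subunit that replaces Psmb6. Its intensity was 2139 in Tc1 and 893.5 in Tc9 cells, log2 signals of 11.06 and 9.80. It was therefore 2.39-fold lower in Tc9 cells, and 1.87% of detectable genes were as low or lower. This was the lowest difference of the 50 genes. Psmb6 stood at 11.11 and 11.04, a log2 difference of -0.07, so the difference of Psmb9 lay 1.19 below that of its counterpart, or 2.27-fold.

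Psmb8 encodes LMP7, the chymotrypsin-like subunit of the immunoproteasome. Its intensity was 3473 in Tc1 and 2296 in Tc9 cells, log2 signals of 11.76 and 11.17. It was 1.51-fold lower in Tc9 cells, just past the 1.5-fold limit. When each array was centred on its median, which shifted differences by 0.07, the log2 difference of Psmb8 became -0.53 and no longer passed. Of detectable genes, 6.54% were as low or lower.

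Psmb10 encodes MECL-1, which replaces Psmb7. It had intensities of 949.3 and 737.8, log2 signals of 9.89 and 9.53, and was 1.29-fold lower in Tc9 cells. Psmb7 was 1.15-fold higher, at 11.34 and 11.54, and the differences of the pair lay 0.57 apart. Psmb10 did not pass 1.5-fold, and 14.0% of detectable genes were as low or lower. The catalytic subunits of the immunoproteasome thus ranged from 1.29-fold to 2.39-fold lower, with a median difference of -0.60, where the measured constitutive pair had a median of 0.06.

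Psme1 and Psme2 encode the alpha and beta subunits of PA28, a cap that opens the core without ATP. Psme2 had intensities of 1459 in Tc1 and 924.3 in Tc9 cells and was 1.58-fold lower in Tc9 cells. Psme1 had 7723 and 6491 and was 1.19-fold lower, within the range of many other genes, since 20.0% of detectable genes were as low or lower. The probe sets of Psme1 and Psme2 therefore differed unequally between the arrays, by 0.41 on the log2 scale. Psme2b, described below, resembles Psme2, and whether the Psme2 probe set also reads its transcript was not tested. Psme3, the PA28 gamma subunit of the nucleus, stood at 11.59 and 11.58, a difference of -0.01 that turned positive with median centring and with quantile normalization. Psme4, the activator PA200, was 1.45-fold higher in Tc9 cells, at 8.49 and 9.03. It passed 1.5-fold once the arrays were median centred, where 9.89% of all detectable genes did. Its Tc1 signal lay below the brightest background probe set of that array, at 8.53.

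Among brighter genes the spread of differences was smaller. Over the 4320 genes with a mean log2 signal of 9 or more, which include all 5 immunoproteasome genes, the interquartile range of the differences was -0.12 to 0.22. In this group 4.44% were lower and 4.58% higher in Tc9 cells by 1.5-fold or more, and 2.01% lower and 0.995% higher by 2-fold or more. Psmb9 was lower than all but 1.37% of them, Psme2 than all but 3.84% and Psmb8 than all but 4.24%. The corresponding shares were 9.56% for Psmb10 and 14.7% for Psme1.

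**Figure D2:**
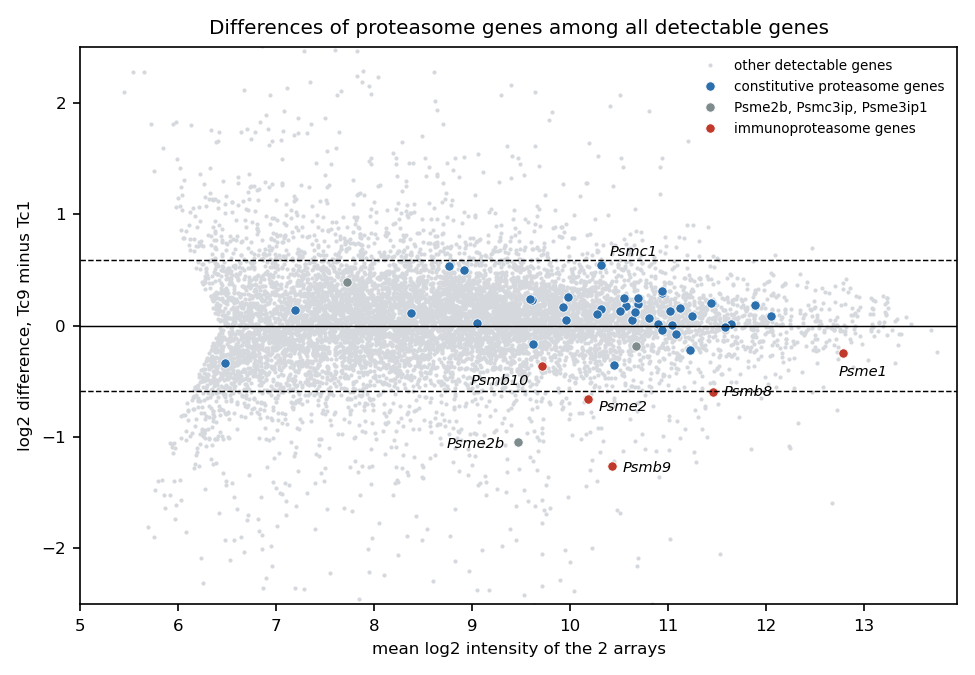
Log2 difference (Tc9 minus Tc1, y axis) against the mean log2 intensity of the 2 arrays (x axis) for all detectable genes (light grey) and the detectable proteasome genes (red immunoproteasome, blue constitutive, dark grey apart), with dashed lines at 1.5-fold. Psmb9 lies lowest of the red points at -1.26 and no blue point lies past a dashed line; 84 detectable genes lie beyond the y axis.

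The genes of the constitutive group differed little between the cultures. Apart from Psmb6 and Psmb7, the detectable core subunits in this group are also part of the immunoproteasome. Of the 40 detectable constitutive genes, 33 were higher and 7 lower in Tc9 cells, none by 1.5-fold, and the interquartile range of their differences was 0.02 to 0.21. With quantile normalization 31 of the 40 were higher, and with median centring 35 were and Psmc1 and Psme4 passed 1.5-fold. Median centring also raised the median over all detectable genes, from 0.05 to 0.12, and 9.89% of them then passed 1.5-fold upward. Without further normalization 56.3% of all detectable genes were higher, and 59.2% of those with a mean of 9 or more. The 82.5% of the constitutive genes cannot be set against these by a test, since genes are not replicates.

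The alpha ring, which gates the entrance to the core, had 7 detectable members with differences between Psma1, at -0.04, and Psma5, at 0.24. Psma1 was at 10.96 in Tc1 and 10.92 in Tc9 cells and turned positive with median centring. Psma5 was at 9.47 and 9.71. The 4 non-catalytic beta subunits were all slightly higher, from 0.08 for Psmb2, at 11.20 and 11.28, to 0.25 for Psmb4, at 10.42 and 10.67. None of the detectable core subunit genes of the constitutive group differed by 1.5-fold, and their median was 0.13 over 13 genes.

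The 19S ATPases form the ring that unfolds the substrate. All 6 were higher in Tc9 cells, though Psmc2 by 0.005 only, at 11.04 on both arrays, and it turned negative with quantile normalization. Psmc1 had the highest difference of the 50 genes, 1.46-fold, at intensities of 1055 and 1542. The ring's subunits are built in equal numbers, and the other 4 lay between 0.15 and 0.30.

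Of the 11 non-ATPase subunits of the regulatory particle, 10 were higher and 1 was lower in Tc9 cells. The lower one was Psmd14, the deubiquitinase of the lid, at intensities of 1588 and 1239 and a log2 difference of -0.36, as low as that of Psmb10. Psmd2, a scaffold of the base, was the highest at 0.31, with intensities of 1760 and 2177. Psmd8 was higher by 0.01 and turned negative with quantile normalization. Psmd4, a ubiquitin receptor, was at 9.93 and 9.98.

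Assembly chaperones went both ways. Of the chaperones of the 19S base, Psmd5 was 1.41-fold higher in Tc9 cells, at 8.66 and 9.16, Psmd9 was higher by 0.11, and Psmd10, at 9.03 and 9.06, turned negative with quantile normalization. Of the chaperones of the 20S core, Psmg1 was the highest at 0.25. Psmg3 was the lowest at -0.34, but its log2 signals of 6.64 and 6.30 lay on either side of the detection threshold, so the value is uncertain. Psmg2 was at -0.17 and Psmg4 at 0.14. Psmf1, which encodes the inhibitor PI31, was 1.17-fold lower, at 11.33 and 11.11. Psmb11, at 4.59 and 4.28, and Psma8, at 4.40 and 4.47, did not reach the threshold on either array, and no fold is given for them.

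Psme2b was 2.06-fold lower in Tc9 cells, at intensities of 1015 and 492.2. Since it resembles Psme2, its probe set may read both transcripts, and in the RefSeq table it also overlaps 9930111J21Rik1. That gene stood at 10.17 and 9.17 and its relative 9930111J21Rik2 at 10.19 and 9.17, and on the other side Irgm1, an immunity-related GTPase, was 5.21-fold lower. How much of the Psme2b signal belongs to each was not tested. Psmc3ip, a meiotic recombination factor, was at 7.52 and 7.91, and Psme3ip1 at 10.76 and 10.58.

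Psmb9 and Psmb8 lie beside other genes of antigen presentation. On chromosome 17 the RefSeq order is H2-DMa, H2-DMb2, H2-DMb1, Psmb9, Tap1, Psmb8, Tap2, H2-Ob and H2-Ab1. The 4 central genes were all lower in Tc9 cells. Tap1, which shares its promoter region with Psmb9, was 2.19-fold lower, at 11.83 and 10.70, and its log2 difference lay within 0.13 of that of Psmb9. Tap2, the partner of Tap1 in the peptide transporter, was 1.62-fold lower, and its difference lay within 0.10 of that of Psmb8.

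The class II genes measured among the nearest 3 on each side were higher or differed little. H2-DMa, a chain of the class II peptide editor, was 1.73-fold higher in Tc9 cells, at 9.51 and 10.31. H2-DMb1 differed by 0.47, H2-DMb2 by 0.22, H2-Ob by 0.08 and H2-Ab1 by 0.01, which turned negative with quantile normalization. H2-DMb1 and H2-DMb2 are near copies and may share probes. H2-Aa, a class II gene beyond this stretch, was 1.34-fold lower in Tc9 cells, at 11.10 and 10.68. The part of other cells in the class II signals was not tested. The genes past 1.5-fold downward on this stretch were the 4 of the class I pathway, or 3 with median centring, which took Psmb8 out. Of all detectable genes 6.78% were lower by as much, or 5.7% with median centring. H2-DMa passed 1.5-fold upward, as 7.8% of all detectable genes did.

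On chromosome 14, Psme1 and Psme2 are separated by Emc9, which overlaps the end of Psme1 and was 1.32-fold higher in Tc9 cells, at 7.69 and 8.08. Next to Psme2 lie Rnf31, a linear ubiquitin ligase subunit, with a difference of -0.49, and Irf9, the DNA-binding subunit of the type I interferon response factor, which was 2.02-fold lower. Pck2 and Dcaf11, on the far side of Psme1, differed by -0.07 and 0.10. Around Psmb10 on chromosome 8, Slc12a4 alone was detectable among the measured genes of the nearest 3 on each side, and it differed by -0.28.

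**Figure D3:**
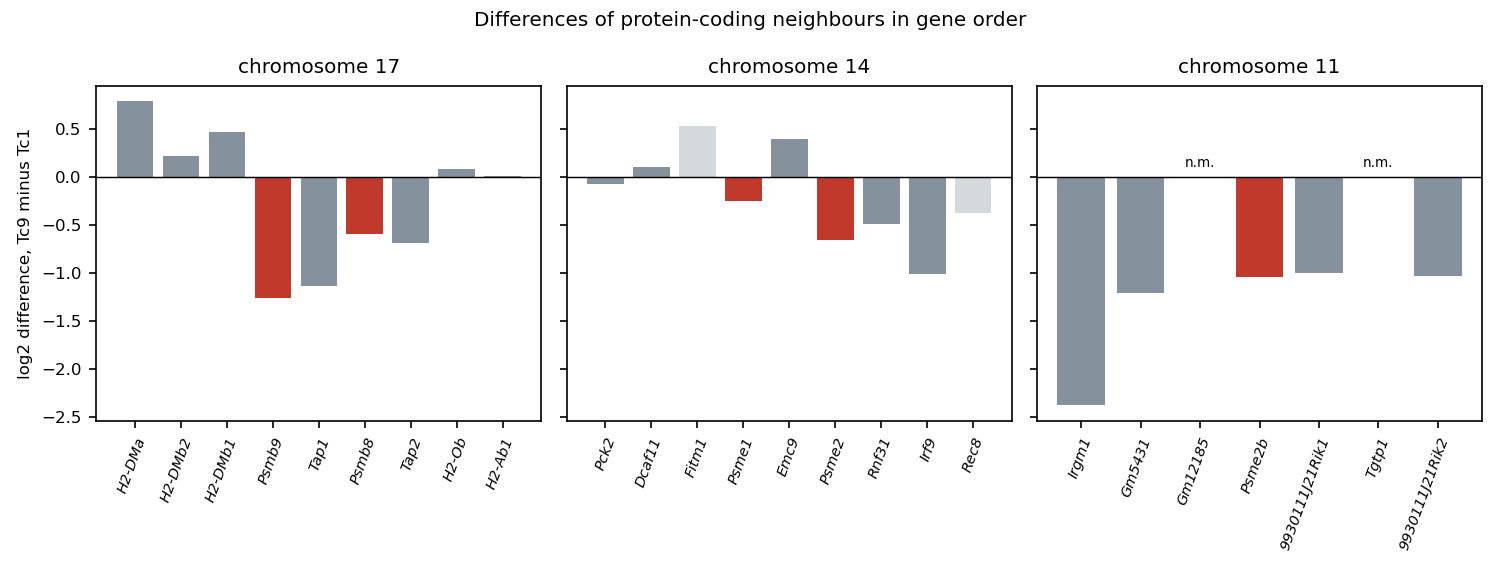
Log2 differences (Tc9 minus Tc1, y axis) of protein-coding genes in RefSeq order (x axis, not to scale) around Psmb9 and Psmb8, Psme1 and Psme2, and Psme2b. Red bars are immunoproteasome genes and Psme2b, pale bars genes below the detection threshold on both arrays, and n.m. genes that were not analysed here. Psmb9, Tap1, Psmb8 and Tap2 lie below 0 between class II genes at or above 0.

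Genes that act with the proteasome were read from lists chosen with earlier results of these arrays known. Of 8 measured genes of assembly and associated factors, 5 were lower and 3 higher, with a median of -0.12. None differed by 1.5-fold, where 6.78% of all detectable genes were lower and 7.8% higher by as much. Pomp, the maturation factor needed for immunoproteasome assembly, was 1.20-fold lower, at 10.76 and 10.49, and Usp14, a deubiquitinase of the 19S particle, 1.27-fold lower. Ecpas was at -0.18 and Akirin2, which imports proteasomes into the nucleus, at 0.18. Adrm1 was not analysed here.

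NRF1, encoded by Nfe2l1, raises transcription of proteasome subunit genes when the particle is impaired. Nfe2l1 was 1.15-fold lower in Tc9 cells, at 10.61 and 10.40. Of 10 measured genes around it, 9 were detectable. Of these, 1 passed 1.5-fold upward and none downward, against 7.8% and 6.78% of all detectable genes. Hsf2 passed downward with quantile normalization. The median over the 10 was 0.08. The higher one was Ngly1, which removes glycans from NRF1, at 6.56 and 7.16, near the threshold. Hsf2, a heat shock factor, was at -0.53, and Mafg, a partner of NRF1, at 0.27.

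Genes downstream in the class I pathway included lower ones outside the chromosome 17 stretch. Of 11 measured class I loading genes, 6 passed 1.5-fold downward and none upward, against 6.78% and 7.8% of all detectable genes. Their median was -0.62. With median centring 5 passed downward, where 5.7% of all detectable genes did. The lowest were Tapbpl, a peptide editor, 2.57-fold lower, Tap1, Tapbp, the tapasin gene, 1.98-fold lower, and Erap1, which trims peptides, 1.66-fold lower. The general chaperones Calr, Canx and Pdia3 differed by 0.27, 0.28 and 0.15.

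Of 11 measured genes of the interferon gamma pathway, all detectable, 5 passed 1.5-fold downward and 3 upward, against 6.78% and 7.8% of all detectable genes, and the median was -0.41. Irf1, the factor known to act on the Psmb9 and Tap1 promoter, was 3.99-fold lower, at 11.22 and 9.22. Ifng was 3.27-fold lower and Stat2 2.70-fold lower. Irf8, an interferon-inducible factor, was 2.46-fold lower, and Irf9, named above, was the fifth. The 3 higher genes were Ifngr2, a chain of the interferon gamma receptor, 2.45-fold, at 8.63 and 9.92, Socs1, which restrains cytokine signalling, 1.60-fold, and the receptor kinase Jak2, 1.56-fold. The antibody in the Tc9 medium blocks interferon gamma. Its part in the immunoproteasome differences cannot be told apart from that of IL-4 or TGF-beta, since they were added together. IL-2 during priming is named above for the Tc1 cells only, and its part cannot be told apart either.

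Other cells that carry immunoproteasomes were also read by their markers. Sums of intensity run over all measured markers of a list, detectable or not. All 7 measured B cell markers were detectable and lower on the Tc9 array, Ebf1 turning with median centring, with differences from -0.97 for Cd79a to -0.01 for Ebf1 and a summed intensity of 4417 in Tc1 and 3141 in Tc9 cells. Of 7 monocyte and macrophage markers 3 were detectable, with sums of 957.8 and 935.0, and Csf1r and Adgre1 lay below the threshold on both arrays. The detectable ones went both ways. Fcgr3, at 8.41 and 7.54, and Itgam, at 6.83 and 6.64, were lower on the Tc9 array, and Lyz2, at 8.36 and 8.79, was higher. Of 7 dendritic cell markers 3 were detectable, with sums of 4564 and 4008, and Flt3 and Xcr1 lay below the threshold. The 3 were the class II genes H2-Aa, at 11.10 and 10.68, and H2-Ab1, at 11.07 and 11.08, and Zbtb46. Zbtb46 was far dimmer, at 6.84 and 5.58, and passed the threshold on the Tc1 array only. Of 4 NK markers only Eomes, which CD8 T cells also express, was detectable, with Ncr1 below the threshold and sums of 696.3 and 337.7. Thymic epithelial markers summed to 172.4 and 183.6, with Foxn1 below the threshold, like Psmb11. The 6 CD8 T cell markers differed between -0.44 and -0.04 and summed to 23679 and 20593. The part of these cells in the immunoproteasome differences was not tested.

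**Figure D4:**
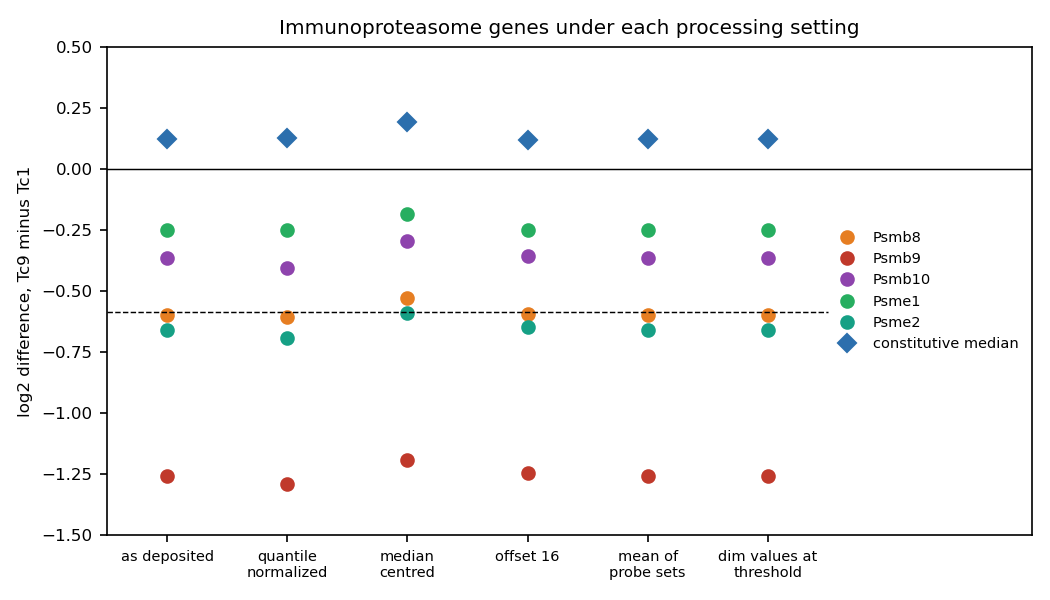
Log2 differences (Tc9 minus Tc1, y axis) of the 5 immunoproteasome genes (circles) and the median of the constitutive genes (diamonds) under each processing setting (x axis), with a dashed line at 1.5-fold lower. All 5 genes stay below 0 and the constitutive median above 0 in these settings; Psmb8 crosses the dashed line with median centring.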

How the data were processed

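Total RNA of 1 Tc1 and 1 Tc9 culture was extracted with Trizol, labelled with biotin by sense-target labelling and hybridised to Affymetrix arrays, per the labels' protocols. The authors' deposited values are probe set intensities on a linear scale. How they were summarized, background-corrected and normalized, and on which genome build, is not stated in the labels.

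The values were used as log2 without further normalization, since both arrays had like quantiles. Of 28846 probe sets, 19572 carried a symbol in the platform annotation, for 19505 genes, and 55 genes with several probe sets kept the brighter one. All 50 proteasome genes matched RefSeq by gene number and symbol. Of these, 48 were detectable, and 43 exceeded all 23 background probe sets on both arrays. Calls use 1.5-fold and 2-fold. The number of arrays limits the precision. Every proteasome gene could be named. From other lists, up to 4 detectable genes with the largest differences were to be named, and others named here (flanking genes, Ifngr2, Socs1, Jak2, class I chaperones, absent markers and further genes of the closing observations) were chosen after their values were seen. The members and lists were chosen with earlier results of these data known. The planned comparison of subunit protein sequences was not run. The counting and normalization code was tested on simulated data. Python 3.11.15, numpy 2.4.6 and pandas 2.3.3 were used.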

Additional observations from a re-analysis of the deposited data

How the results depend on the processing

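The medians and counts were recomputed with quantile normalization, median centring, an offset of 16 before log2, the mean of several probe sets, dim values set at the threshold, detectable genes alone and other definitions of the groups. The immunoproteasome median ranged from -0.63 to -0.53, the constitutive median from 0.12 to 0.19 and the gap from -0.75 to -0.66, the smallest with Psmb6 and Psmb7 as the only constitutive genes. The lowest immunoproteasome median and the widest gap came from counting Psme2b with the immunoproteasome, a setting chosen after seeing the data. With median centring 2 genes were at least 1.5-fold higher in place of none (Psmc1 and Psme4) and 2 at least 1.5-fold lower in place of 3. In that setting 9.89% of all detectable genes were higher and 5.7% lower by as much. The median difference over all genes was then 0.07. Quantile normalization turned the sign of 4 small differences (Psmc2, Psmd8, Psmd10 and Psme3), and median centring that of 2 (Psma1 and Psme3). Leaving out an array was not possible with 1 per group, and no paired analysis was possible because each group has 1 array. Dim signals limit Psmg3, Psma8 and Psmb11. Psme4, Psmd9, Psmg4 and Psmc3ip were detectable but did not exceed all background probe sets on both arrays. The brightest of these stood at 8.53 in Tc1 and 8.65 in Tc9 cells.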

Other observations

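Genes of ISG15, a ubiquitin-like modifier that interferons induce, were lower in Tc9 cells. The list of ubiquitin and shuttle genes had 16 measured members with a median difference of -0.19, and 4 of its 15 detectable members were at least 2-fold lower, where 2.79% of all detectable genes were. These 4 were ISG15 pathway genes. Isg15 was at least 2.24-fold lower, at log2 signals of 7.59 in Tc1 cells and 4.99, which is below the threshold, in Tc9 cells. Usp18, which removes ISG15 from proteins, was 3.71-fold lower, at 9.72 and 7.83, and Herc6, its ligase in the mouse, 2.54-fold lower. Ube2l6, the conjugating enzyme, was at least 2.61-fold lower, and Uba7, the activating enzyme, 1.41-fold lower, at 8.31 and 7.81. The 10 ubiquitin activation and shuttle genes, split from the list after the values were seen, had a median of 0.05, with 5 lower and 5 higher, and differences between -0.29 for Ubqln4 and 0.41 for Ubqln1. Ubiquitin genes themselves were not analysed here.

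Peptidases that act after the proteasome in the cytosol differed less. The median over 10 measured genes, all detectable, was -0.01 and became 0.05 with median centring. Erap1, which works in the endoplasmic reticulum, was the one at least 1.5-fold lower, where 6.78% of all detectable genes were. Lap3, an aminopeptidase known to be induced by interferon gamma, was 1.42-fold lower, at 10.97 and 10.47, and Prep 1.30-fold lower, while Blmh was 1.11-fold higher. Tpp2, the giant peptidase that trims proteasome products, was at 10.16 and 10.17.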
